A study of Mus musculus with 20 samples.

Results

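Messenger RNA of axonemal genes was followed in the mouse testis from birth to day 35. The genes are those whose symbol on the array begins with Cfap (cilia and flagella associated protein), Dnah, Dnaic or Dnali (axonemal dynein chains), Rsph (radial spoke), Tekt (tektin) or Drc (dynein regulatory complex) followed by a number. Of 18193 genes with a probe set that carries a single symbol, 51 have such a name. A gene with several probe sets is represented by the one whose log2 intensity averaged highest. By role they are 5 outer arm dynein heavy chains, 5 inner arm heavy chains, 3 intermediate or light intermediate chains, 6 radial spoke genes, 2 genes of the nexin-dynein regulatory complex, 5 tektins and 25 Cfap genes.

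The study measured total RNA of whole testis on 20 single-channel arrays, 2 for each of 10 days after birth: days 0, 3, 6 and 8, then days 10, 14, 18 and 20, and last days 30 and 35. By their labels the groups differ only in day. The labels used here give no genotype, strain or treatment, and do not say whether an array stands for 1 animal or a pool. They also leave unsaid whether both arrays of a day stand for different animals. The p-values then reflect only how far these arrays differ, which may be technical. Values are linear probe set intensities, and the number of arrays limits their precision.

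The axoneme is the microtubule core of motile cilia and of the sperm tail. Dynein arms, built from heavy chains with motor activity and from intermediate and light chains, slide neighbouring doublet microtubules. Radial spokes and the nexin-dynein regulatory complex hold the doublets together and control the arms, tektins run as filaments inside the doublets, and many Cfap proteins line the doublets or belong to the central pair. In the testis the flagellum is assembled in spermatids, while many of its messages appear in late meiotic spermatocytes.

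The arrays followed the sequence of the first wave of spermatogenesis. The summed intensity of 4 spermatocyte markers was 876 on day 8, 5307 on day 14 and 7834 on day 20, and that of 4 round spermatid markers was 195 on day 14, 1419 on day 20 and 5325 on day 30. The 5 elongating spermatid markers summed to 285 on day 20 and 44094 on day 30, whereas the 4 Sertoli cell markers summed to 2062 on day 14 and 653 on day 30. 1 array titled day 18 replicate 2 carries day 0 in another label. Across genes it correlated with the other day 18 array at r = 0.971 and with the day 0 arrays at no more than 0.805, and it was kept under its title. It enters the time course test, the range of day means, the timing and the shared estimate of spread, but neither day of any comparison between a pair of days. The lowest values stepped up between days 14 and 18: the median of 27 bacterial control probe sets was 1.84 on days 0 to 14 and 8.22 on days 18 to 35. Day 20 against day 14, the time course and any contrast of days 0 to 8 with days 18 to 35 span this step. Its part in them was not tested. Axonemal calls between a pair of days that were lost with a floor at the pooled median are named below. Genes of the other lists are given without that floor, also where their values are low. In whole testis, fewer cells of a type and less RNA per cell cannot be told apart.

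Differences below are on the log2(intensity + 7.83) scale, which understates the change of low values. They come from limma fitted to all 16429 genes that passed a filter on dim probe sets, with Benjamini-Hochberg adjustment over those genes. A call required both an adjusted p below 0.05 and at least a 2-fold difference. 48 of the 51 axonemal genes passed the filter. The other 3 were low throughout: Cfap47 had day means between 1.98 and 21.5, Dnah17 between 1.54 and 15.1, and Rsph4a between 0.944 and 20.7.

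Most axonemal genes were lower through day 8 than from day 18 on. Over the time course 47 of 48 were called, against 77.6% of all genes tested, so a call by itself sets them little apart. The median range between the lowest and highest day mean was 4.97 log2 units for the axonemal genes and 1.80 for all genes. For 43 of 48, the highest array of days 0 to 8 lay below the lowest array of days 18 to 35, as it did for 20.6% of all genes tested. Without day 18 replicate 2 these were 44 genes and 21.8%. 29 of 48 genes were under the pooled median of all intensities, 34.6, on every array of days 0 to 8, while Cfap20, Cfap36 and Cfap97 had day 0 means of 509, 410 and 397. The same share of all genes tested was not counted, so the 29 describe only the level of these genes. On day 18 the means of Cfap157 (19.3), Cfap97d1 (20.7), Dnah9 (26.4), Dnah11 (29.6) and Dnah5 (30.6) were still under that median. The exceptions to the separation with all arrays were Cfap20dc, Dnah5, Dnah9, Dnah11 and Rsph3a. Dnah11, an outer arm heavy chain, was not called (adjusted p = 0.184), and its day means ran from 5.78 to 29.6, near the level of the control probe sets.

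**Figure D1:**
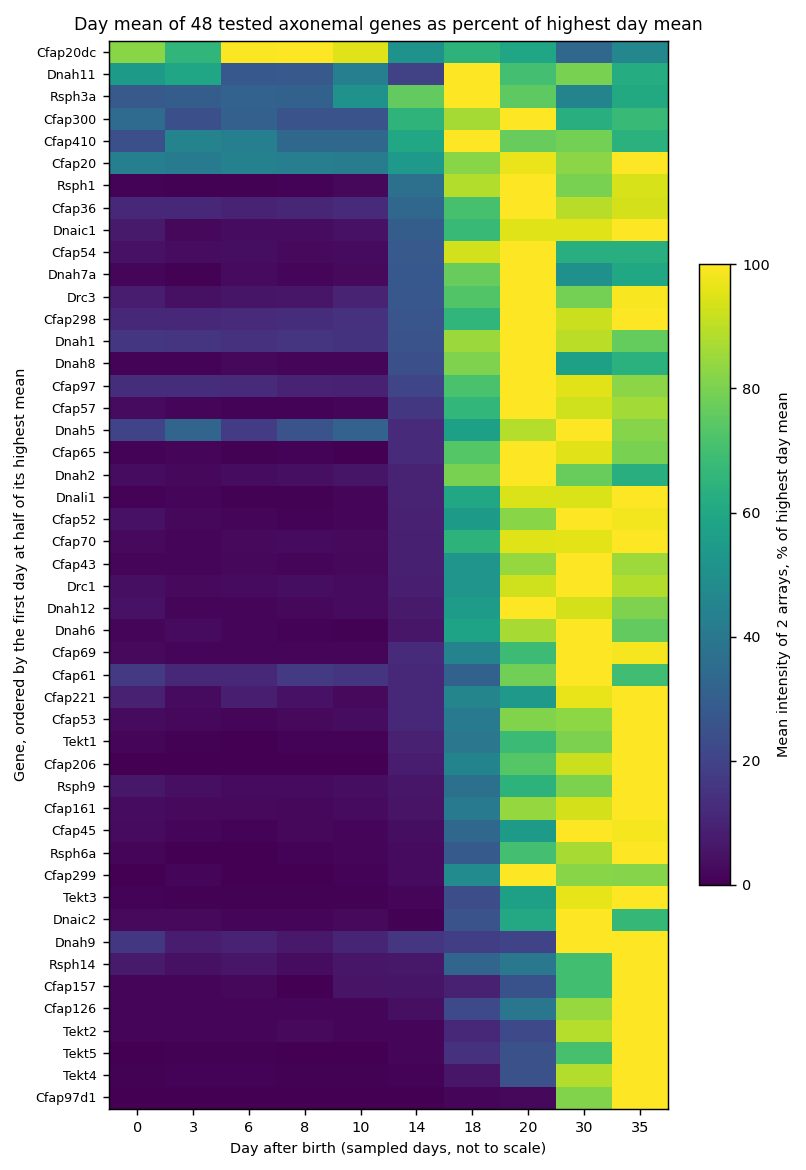
Mean intensity of each of the 48 tested axonemal genes on each sampled day, as a percent of that gene's highest day mean (color), with genes down the vertical axis in the order of the first day at 50% of that mean. Most genes are dark through day 10 and bright from day 18 or 20, the lowest rows (Tekt2, Tekt4, Tekt5, Cfap97d1 and others) turn bright only on day 30, and Cfap20dc at the top runs the other way.

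The order in which the genes came up was described by the first day whose mean reached 50% of the gene's highest day mean. 21 genes reached it on day 18, 13 on day 20 and 8 on day 30. Dnah8, Rsph1, Drc1 and Dnali1 were in the first of these groups, Tekt1, Tekt3, Rsph6a and Cfap206 in the next, and Tekt2, Tekt4, Tekt5, Cfap97d1, Cfap126, Cfap157, Dnah9 and Rsph14 in the last. Rsph3a reached it on day 10, and Cfap20, Cfap300 and Cfap410 on day 14. Without day 18 replicate 2, 22 genes reached it on day 18, 13 on day 20 and 8 on day 30, with Dnah11 and Rsph3a moving to later days. The highest mean fell on day 20 for 15 genes, on day 30 for 9 and on day 35 for 20, among which were all 5 tektins. On day 35 the mean was under 70% of its highest in 11 of 48 genes, and under 50% only in Cfap20dc.

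Since most of these genes came up within a few days, their promoters were searched for GTTGCC, which reads GGCAAC on the other strand, the half-site from which the X-box of Rfx factors is built. The 250 bases before the start were taken from RefSeq (GRCm38.p6), which held an entry for 43 of the 51 genes. The others are Cfap53, Cfap54, Cfap65, Cfap97, Cfap157, Cfap299, Rsph1 and Rsph4a. The 5 sequences below hold the half-site at least 2 times; capitals mark it, each reads 5′ to 3′ on the gene's strand (minus for all 5) and ends at the base before the start. Cfap298 (chr16:90934850-90935099) and Cfap161 (chr7:83794840-83794989) hold the most copies, Tekt1 (chr11:72361883-72362032) and Tekt2 (chr4:126325689-126325838) are the earliest and a late tektin, and Cfap20dc (chr14:8666291-8666440) is the gene whose representative probe set ran the other way.
Cfap298: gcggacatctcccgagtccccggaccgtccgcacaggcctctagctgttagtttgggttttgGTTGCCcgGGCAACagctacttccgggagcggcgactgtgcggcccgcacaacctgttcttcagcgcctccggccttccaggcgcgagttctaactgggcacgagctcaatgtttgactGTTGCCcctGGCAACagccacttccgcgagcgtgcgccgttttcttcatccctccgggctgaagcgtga
Cfap161: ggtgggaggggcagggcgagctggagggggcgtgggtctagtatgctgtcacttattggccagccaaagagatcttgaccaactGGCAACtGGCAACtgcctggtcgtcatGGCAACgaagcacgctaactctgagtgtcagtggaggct
Tekt1: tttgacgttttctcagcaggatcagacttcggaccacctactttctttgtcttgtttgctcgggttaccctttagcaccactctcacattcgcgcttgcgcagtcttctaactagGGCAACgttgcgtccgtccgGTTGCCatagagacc
Tekt2: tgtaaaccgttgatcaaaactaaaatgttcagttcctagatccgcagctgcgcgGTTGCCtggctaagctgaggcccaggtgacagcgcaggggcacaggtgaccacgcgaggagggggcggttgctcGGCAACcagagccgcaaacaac
Cfap20dc: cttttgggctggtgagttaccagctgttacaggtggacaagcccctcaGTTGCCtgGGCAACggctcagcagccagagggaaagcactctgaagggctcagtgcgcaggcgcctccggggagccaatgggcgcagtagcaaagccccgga

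GTTGCC was found in 10 of 43 axonemal promoters (23.3%), beside 11.8% of 27025 genes in the table. Beside the genes printed, it was in Dnah7a, Drc1, Dnaic2, Cfap20 and Cfap300. Cfap298 holds 4 copies as 2 opposed pairs, and Cfap161 holds 3 on 1 strand. Cfap161 rose between days 14 and 20 from 67.5 to 1083, and Cfap298 from 299 to 1130 (a call lost, at 0.80 log2 units, with all Cfap298 probe sets averaged). Cfap20dc also holds an opposed pair, and was called in no comparison between a pair of days. Tekt1 and Tekt2 both hold 2 copies in the printed bases. In Tekt1 GGCAAC comes before GTTGCC, the reverse of the order in the pairs of Cfap298 and Cfap20dc. Tekt1 was called in the steps to days 14 and 20, and Tekt2 in those to days 20 and 30. The core that Myb factors bind, CNGTT or on the other strand AACNG, was in 39 of 43 axonemal promoters (90.7%) and in 76.8% of all genes. The half-site of cyclic AMP response elements, TGACG or on the other strand CGTCA, was in 5 (11.6%) and in 19.8%. These matches describe letters in the window and show no binding. Whether they go with the timing or direction of a gene was not tested, and the printed genes were chosen.

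Among outer arm heavy chains, the motor subunits, Dnah8 (chromosome 17) had the widest range. Its arrays read 48.7 and 41.0 on day 0, 47.5 and 37.9 on day 3, 68.6 and 82.7 on day 6, 51.2 and 64.2 on day 8, and 54.8 and 44.7 on day 10. They then read 1013 and 857 on day 14, 3020 and 3197 on day 18, 3811 and 3886 on day 20, 2304 and 2063 on day 30, and 2521 and 2383 on day 35. All arrays from day 14 on lay above all earlier ones, and both arrays of day 20 lay above those of days 30 and 35. Dnah8 rose by 3.85 ± 0.13 (SE) log2 units from day 8 to day 14 (adjusted p = 3.68e-14, limma) and by 2.04 ± 0.13 from day 14 to day 20 (adjusted p = 1.87e-10). Day 30 against day 20 gave -0.82 ± 0.13 (adjusted p = 4.23e-05), which passed the adjusted p but was under 2-fold. A second Dnah8 probe set stayed at or below a day mean of 22.7.

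The other outer arm heavy chains were far less regular. Dnah9, also a heavy chain of respiratory cilia, read 34.7 and 22.8 on day 20, 108 and 176 on day 30, and 151 and 134 on day 35. It rose by 2.02 ± 0.35 log2 units from day 20 to day 30 (adjusted p = 8.89e-05), with no called difference in the earlier comparisons. Dnah5 had a mean of 6.74 on day 14 and 47.9 on day 20, a difference of 2.07 ± 0.48 (adjusted p = 0.0011). With values under the pooled median set to that median, its difference was 0.39 and was not called.

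Inner arm heavy chains shape the waveform of the beat, and all 5 rose from day 14 to day 20. Dnah7a (chromosome 1) read 8.63 and 5.37 on day 0, 1.81 and 1.90 on day 3, 11.3 and 11.2 on day 6, 8.56 and 6.45 on day 8, and 9.17 and 11.2 on day 10. It then read 111 and 105 on day 14, 265 and 336 on day 18, 386 and 397 on day 20, 195 and 198 on day 30, and 212 and 259 on day 35. The day 20 arrays were the highest, and those of days 30 and 35 fell below every day 18 array. The rise was 2.92 ± 0.23 log2 units from day 8 to day 14 and 1.78 ± 0.23 from day 14 to day 20. Day 30 against day 20 gave -0.97 ± 0.23 (adjusted p = 0.00181), just under 2-fold. Dnah2 went up from 71.4 ± 19.9 (SD, n = 2) on day 14 to 711 ± 104 on day 20, Dnah6 from 17.1 to 243, Dnah12 from 27.4 to 374 and Dnah1 from 106 to 413.

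Dnali1, a light intermediate chain of inner arms, and the intermediate chains Dnaic1 and Dnaic2 of outer arms all rose from day 14 to day 20. Dnali1 (chromosome 4) was between 1.33 and 17.4 on all 10 arrays of days 0 to 10. It then read 86.4 and 87.1 on day 14, 518 and 566 on day 18, 874 and 845 on day 20, 859 and 861 on day 30, and 961 and 861 on day 35. No array of a later day overlapped those of days 0 to 10. It rose by 2.98 ± 0.30 log2 units from day 8 to day 14 and by 3.20 ± 0.30 from day 14 to day 20. Its second probe set went on rising, with means of 385 on day 20, 903 on day 30 and 1063 on day 35, so the probe sets disagree on the course after day 20. Dnaic2 was not called from day 8 to day 14 (-0.44 ± 0.28), and then rose from 2.07 ± 1.46 (SD, n = 2) on day 14 to 233 ± 20.8 on day 20 (4.61 ± 0.28 log2 units, adjusted p = 6.02e-11).

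Rsph1, a protein of the radial spoke head (chromosome 17), had the largest rise of any axonemal gene from day 8 to day 14. Its arrays read 52.2 and 52.8 on day 0, 22.3 and 21.6 on day 3, 19.8 and 26.8 on day 6, 40.8 and 49.98 on day 8, and 107.0 and 106.7 on day 10. They read 1892 and 1568 on day 14, 3984 and 4304 on day 18, 4686 and 4669 on day 20, 3685 and 3801 on day 30, and 4635 and 4140 on day 35. Both day 10 arrays were already above every earlier array. The rise was 5.03 ± 0.12 log2 units from day 8 to day 14 (adjusted p = 3.21e-16) and 1.44 ± 0.12 from day 14 to day 20 (adjusted p = 3.32e-09).

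Of the other tested spoke genes, 3 rose from day 14 to day 20. Rsph6a, a head protein found mainly in testis, rose between days 14 and 20 from 21.5 to 526 (4.2 ± 0.27 log2 units), Rsph9, also of the head, from 64.6 to 707 (3.33 ± 0.16), and Rsph14 from 14.5 to 91.5 (2.17 ± 0.29). Rsph3a, of the spoke stalk, differed: it was 28.4 on day 8, 69.2 on day 14, 91.1 on day 18 and 41.2 on day 30. Its call for day 14 against day 8 (1.08 ± 0.33, adjusted p = 0.0188) was lost under quantile normalization (0.91), without day 14 replicate 1 (0.89) and without either day 8 array (1.09 and 1.06, with the adjusted p past 0.05). It was also lost with all Rsph3a probe sets averaged (0.50). A probe set shared by Rsph3a and Rsph3b, which is not among the 51, read 1681 on day 14 and 6164 on day 20, so these near-identical genes cannot be told apart on it.

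Drc1, a scaffold of the nexin-dynein regulatory complex (chromosome 5), was between 12.0 and 25.1 on the 10 arrays of days 0 to 10. It then read 62.1 and 40.2 on day 14, 326 and 320 on day 18, 568 and 582 on day 20, 647 and 590 on day 30, and 541 and 553 on day 35. The rise from day 14 to day 20 was 3.33 ± 0.21 log2 units (adjusted p = 1.42e-10), and that from day 8 to day 14 was 0.97 ± 0.21 (adjusted p = 0.00181), just under 2-fold. Drc3 of the same complex rose in both steps, by 1.93 ± 0.20 and 1.84 ± 0.20. With all its probe sets averaged the second of these was 0.40 and was not called, since another Drc3 probe set read 23.7 on day 14 and 7.41 on day 20.

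Tektins strengthen the doublet wall, and 3 of the 5 reached 50% of their highest mean only on day 30. Tekt1 (chromosome 11) read between 0.650 and 28.0 on the arrays of days 0 to 10. It then read 194 and 154 on day 14, 689 and 790 on day 18, 1257 and 1291 on day 20, 1551 and 1463 on day 30, and 1895 and 1851 on day 35. The pairs of arrays did not overlap from one of these days to the next. Tekt1 rose by 2.83 ± 0.29 log2 units from day 8 to day 14 (adjusted p = 2.6e-07) and by 2.82 ± 0.29 from day 14 to day 20 (adjusted p = 7.89e-08).

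Tekt2 read 39.6 and 30.7 on day 14, within the range of its arrays on days 0 to 8, then 217 and 246 on day 18, 416 and 463 on day 20, 1863 and 1659 on day 30, and 2042 and 1915 on day 35. Tekt4 read 25.7 and 12.1 on day 14, 449 and 389 on day 20 and 1525 and 1449 on day 30, and Tekt5 read 5.91 and 3.62, 82.9 and 107 and 257 and 286 on the same days. These 3 tektins rose again from day 20 to day 30, Tekt2 by 1.98 ± 0.19 log2 units (adjusted p = 5.85e-08), Tekt4 by 1.81 ± 0.47 (adjusted p = 0.00374) and Tekt5 by 1.45 ± 0.31 (adjusted p = 0.000697). Tekt3 rose by 4.46 ± 0.31 from day 14 to day 20, and its day 30 against day 20 difference of 0.76 ± 0.31 did not pass (adjusted p = 0.0546).

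**Figure D2:**
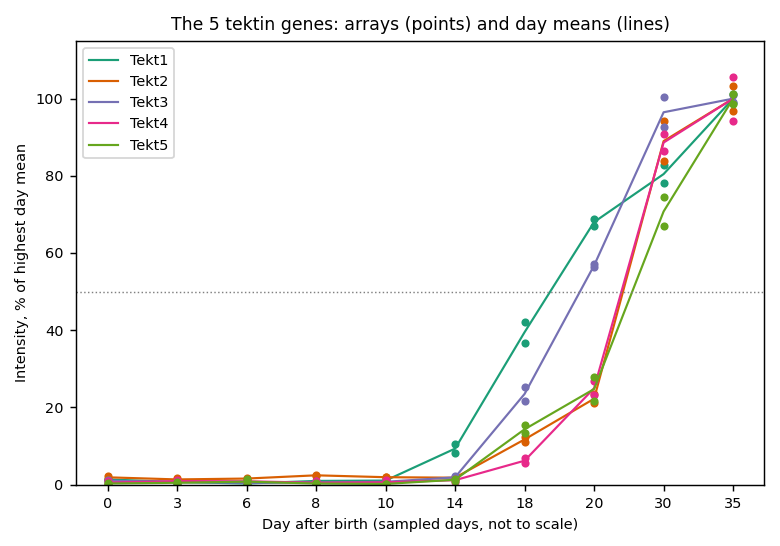
Intensity of the 5 tektins as a percent of the highest day mean of each, against the sampled days in order; points are arrays, lines join day means and the dotted line marks 50%. Tekt1 and Tekt3 cross 50% by day 20, while Tekt2, Tekt4 and Tekt5 cross it between days 20 and 30, and all end highest on day 35.

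Cfap genes were the most numerous. Cfap36, which binds the ciliary GTPase Arl3 (chromosome 11), was already well measured at birth, reading between 347 and 453 on the 10 arrays of days 0 to 10. It then read 1304 and 1161 on day 14, 2533 and 2676 on day 18, 3604 and 3745 on day 20, 3790 and 2780 on day 30, and 3500 and 3361 on day 35. Cfap97 (chromosome 8) had a similar course, between 243 and 413 through day 10, 696 and 565 on day 14, 2095 and 2201 on day 18, 2971 and 3043 on day 20, 2840 and 2900 on day 30, and 2511 and 2463 on day 35. Both genes thus rose from a level well above that of the control probe sets.

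Cfap97d1, a Cfap97 relative that maintains the sperm axoneme (chromosome 11), had the widest range of all 48, 7.50 log2 units. It lay between 0.282 and 8.89 on all 12 arrays of days 0 to 14, then read 17.9 and 23.6 on day 18, 45.9 and 23.5 on day 20, 1309 and 1166 on day 30, and 1581 and 1468 on day 35. Most of its rise fell between days 20 and 30, at 4.92 ± 0.35 log2 units (adjusted p = 1.39e-09). Its difference from day 14 to day 20, 2.15 ± 0.35, was 0.17 with low values set to the pooled median.

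Cfap20dc, a gene with a domain related to that of Cfap20, was the only called gene that was higher on days 0 to 8 than on days 18 to 35. Its arrays (chromosome 14) read 64.6 and 52.1 on day 0, 47.8 and 45.8 on day 3, 65.4 and 76.0 on day 6, 71.3 and 70.7 on day 8, and 73.6 and 61.8 on day 10. They read 35.2 and 37.0 on day 14, 41.0 and 50.8 on day 18, 45.7 and 38.5 on day 20, 17.2 and 30.0 on day 30, and 24.5 and 41.5 on day 35. Day 14 lay below every earlier array, while days 3 and 18 overlapped. The time course passed (adjusted p = 0.00111), but the call was lost with all Cfap20dc probe sets averaged and with low values set to the pooled median, and no single comparison was called. Its other probe sets did not decline: 1 had means of 32.9 on day 0 and 58.9 on day 35, its highest, and another was highest on day 30, at 27.4.

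**Figure D3:**
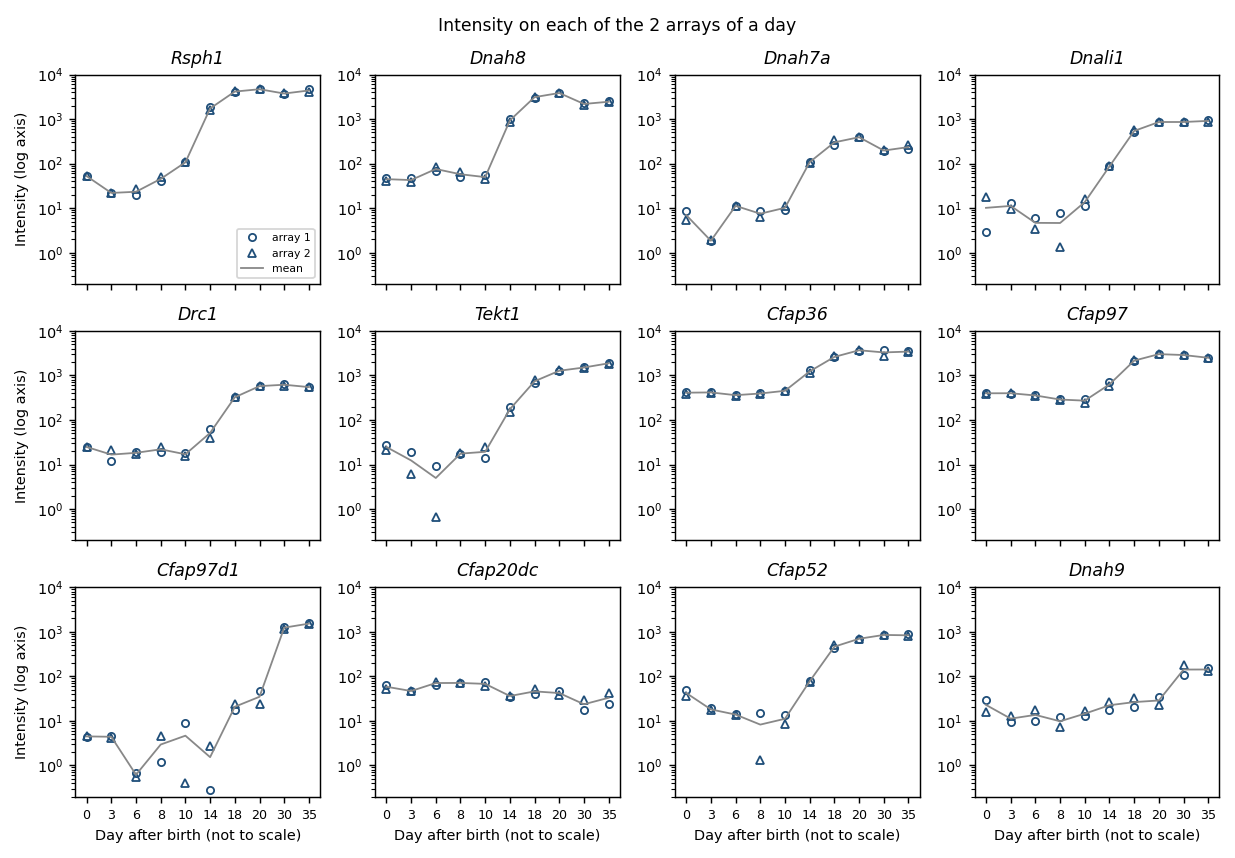
Intensity on a log axis against the sampled days in order for the axonemal genes described in full, with Cfap52 and Dnah9; circles and triangles are the 2 arrays of a day and lines join day means. Rsph1 and Dnah8 jump between days 10 and 14, Cfap97d1 and Dnah9 between days 20 and 30, Cfap36 and Cfap97 lie between 243 and 453 through day 10 before they rise, and Cfap20dc declines.

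Between day 0 and day 8 no rise of an axonemal message was called. None of 48 was called higher and 1 lower, beside 3.29% and 2.77% of all genes tested. At an unadjusted p under 0.05 limma placed 1 gene above 0 and 10 below (20.8%), beside 17.5% and 14.6% of all genes. The median difference was -0.16 log2 units, beside -0.01 for all genes, and 35 of 48 fitted differences (72.9%) were below 0, beside 50.6% of all. The share called lower, 2.08%, was under that of all genes. The gene called was Cfap52, a protein of the doublet lumen, which read 48.7 and 35.9 on day 0 and 15.2 and 1.32 on day 8. Cfap52 fell by 1.78 on the log2 scale (SE 0.28, adjusted p = 0.000119).

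The fall of Cfap52 rests on low values. It was -0.84 with its probe sets averaged and -0.23 with low values set to the pooled median, uncalled in both, and -1.11, still called, without day 8 replicate 2. A second Cfap52 probe set read 7.36 on day 0 and 7.69 on day 8. Another 5 genes passed the adjusted p with less than a 2-fold difference, all below 0: Rsph9 (-0.90 ± 0.16), Cfap57 (-0.98 ± 0.32), Cfap69 (-0.74 ± 0.18), Cfap97 (-0.46 ± 0.10) and Cfap300 (-0.42 ± 0.14). Over the same days the 9 measured markers of efferent duct and epididymis, of 14 listed, summed to 314 on day 0 and 208 on day 8, with Defb42 at 223 and 133. Most of both sums was thus Defb42. The other measured markers had means between 1.39 and 24.2 on these days. Among them Lcn5 (1.82 and 3.02) and Lcn8 (8.25 and 14.9) were higher on day 8, and the rest were lower. None of the 9 was listed at 0, and their part in these differences was not tested. Of 3 measured markers of multiciliated epithelium, of 5 listed, the sum was 43.02 on day 0 and 45.5 on day 8.

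From day 8 to day 14, over which the spermatocyte marker sum went from 876 to 5307, 26 of 48 axonemal genes rose (54.2%) and none was called lower, beside 5.48% higher and 2.5% lower of all genes tested. At an unadjusted p under 0.05 limma placed 38 genes above 0 and 1 below, beside 17.6% and 16.8% of all genes. The median difference was 1.10 log2 units, beside -0.02 for all genes. By role, those that rose were 1 of 4 outer arm heavy chains, 3 of 5 inner arm heavy chains, 2 of 3 intermediate or light intermediate chains, 2 of 5 spoke genes, 1 of 2 regulatory complex genes, 2 of 5 tektins and 15 of 24 Cfap genes.

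After Rsph1 and Dnah8, the largest rises were of Cfap206, a docking factor at the base of a radial spoke (3.81 ± 0.23 log2 units, from 7.76 to 205), and Cfap57 (3.03 ± 0.32, from 6.03 to 103). Many of the smaller rises were near the threshold. Of the 26 calls, 14 held under every alternative run, and 7 were lost when 1 array was left out. Cfap53 was at 1.02 without day 8 replicate 2 and at 1.33 without day 14 replicate 2, and Cfap97 at 0.96 without day 14 replicate 1. Dnah2 was at 0.87 and Tekt3 at 0.62 without day 8 replicate 1, and at 0.84 and 0.97 without day 14 replicate 1. Cfap157, whose means of 0.71 and 11.7 are both near the control level, was at 0.00 with the floor, at 1.09 and 1.22 without 1 or the other day 8 array and at 0.81 without day 14 replicate 2. Dnah12 lost its call without any 1 of the 4 arrays compared (0.97 to 1.40), and Rsph3a has been given with the spoke genes. Where the remaining difference was above 1, the adjusted p no longer passed. With the floor the calls of Cfap299, Dnah12 and Tekt3 were also lost, each at 0.00. So were those of Cfap53 (0.17), Cfap70 (0.63), Cfap65 (0.79), Dnaic1 (0.80), Rsph3a (0.85), Dnah2 (0.88) and Cfap43 (0.90). With all probe sets of a gene averaged, the calls of Dnah2 (0.42), Cfap70 (0.62), Cfap97 (0.77) and Rsph3a were lost.

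The step from day 14 to day 20 was the broadest: 41 of 48 axonemal genes rose (85.4%) and none was called lower, beside 18.2% higher and 11.2% lower of all genes tested. At an unadjusted p under 0.05 limma placed 44 genes above 0 and 0 below, beside 29.5% and 31.7% of all genes. The median difference was 2.51 log2 units against 0.01 for all genes. All inner arm heavy chains, intermediate and light intermediate chains, regulatory complex genes and tektins rose, with 2 of 4 outer arm heavy chains, 4 of 5 spoke genes and 20 of 24 Cfap genes. The largest rise was of Cfap299, whose arrays read 31.8 and 27.4 on day 14 and 1110 and 1046 on day 20 (4.86 ± 0.29 log2 units, adjusted p = 7.4e-11).

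Of the 41 genes, 24 had also risen from day 8 to day 14, while 17 were called only in the later step. These comparisons share the day 14 arrays, and the difference between the steps was not tested. Of the 17, Cfap161 (0.997), Cfap298 (0.96), Drc1 (0.97), Rsph6a (0.95), Rsph9 (0.80) and Dnah1 (0.71) had passed the adjusted p in the earlier step with less than a 2-fold difference. Those called only in the later step included Drc1, Dnaic2, Rsph6a, Rsph9, Tekt2, Tekt4 and Tekt5. Cfap300, a dynein assembly factor, was called only in the earlier one, by 1.29 ± 0.14 and then 0.60 ± 0.14. Cfap20, of the inner junction of the doublet, was high from birth (509 on day 0) and reached 1139 on day 20, with a difference of 0.85 ± 0.09 that passed the adjusted p (1.49e-07) but not the 2-fold rule. Cfap20, Cfap410, Dnah9, Dnah11 and Cfap20dc were called in neither step.

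**Figure D4:**
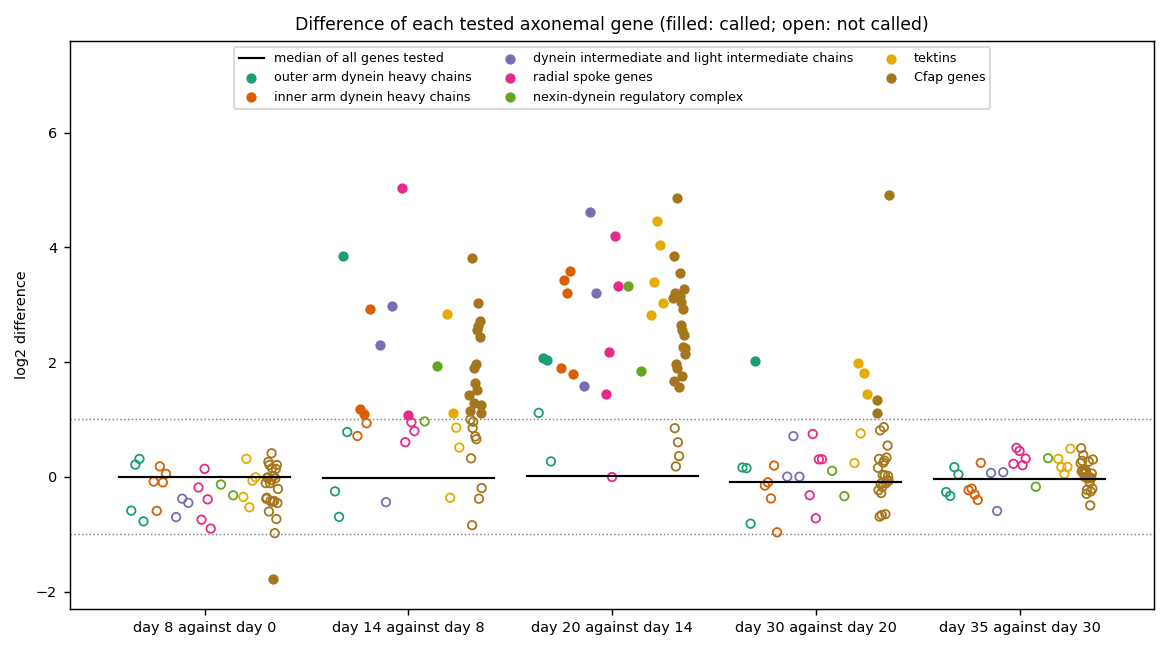
Fitted log2 difference of each tested axonemal gene in the 5 comparisons, colored by role; filled points were called, open points were not, black bars are the median of all genes tested and dotted lines mark a 2-fold difference. Called points lie above 0 in every role for day 14 against day 8 and day 20 against day 14, and for day 30 against day 20 only Dnah9, 3 tektins and 3 Cfap genes are filled, with Cfap97d1 highest at 4.92.

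From day 20 to day 30, over which the elongating spermatid marker sum went from 285 to 44094, few axonemal genes were called. 7 of 48 rose (14.6%) and none was called lower, beside 9.84% higher and 6.73% lower of all genes tested, so the share that rose was not far from that of all genes. At an unadjusted p under 0.05 limma placed 13 genes above 0 and 7 below, beside 17.8% and 32.5% of all genes. The median difference was 0.13 log2 units beside -0.10 for all genes. The risers were Tekt2, Tekt4, Tekt5, Dnah9, Cfap97d1, Cfap126 (1.11 ± 0.19, from 1014 to 2194) and Cfap157 (1.35 ± 0.36, from 52.8 to 146). Another 10 genes passed the adjusted p with less than a 2-fold difference. Of these, 4 were above 0 (Cfap45, Cfap69, Dnaic2 and Rsph14) and 6 below (Cfap20, Cfap20dc, Cfap300, Dnah7a, Dnah8 and Rsph1). Cfap126 and Cfap157 were called in all 3 steps from day 8 on, although Cfap157 was called in neither of the first and second steps with low values set to the pooled median.

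The scaling of the arrays changed some of these calls. When all arrays were given the same median, the median of all genes moved by -0.17, that of the axonemal genes was -0.07, and the calls were 6 higher and 2 lower: Dnah7a at -1.16 and Dnah8 at -1.02. Cfap126, at 0.90, was then not called. The calls of Tekt4 and Cfap157 were lost with a smaller added constant, at 1.83 and 1.44, where the adjusted p did not pass. Of all called genes 59.4% were higher, and 39.99% with that scaling. The same scaling moved the median of all genes by -0.19 and the higher share of all calls from 61.8% to 46.0% for day 20 against day 14, where the axonemal count stayed at 41 higher and 0 lower. Over days 20 to 30 the 3 multiciliated markers summed to 295 and 1418, of which Deup1 took 201 and 1143, Foxj1 68.9 and 246 and Ccno 25.2 and 29.4. Their part in these differences was not tested.

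From day 30 to day 35 no axonemal gene was called, beside 0.621% higher and 1.33% lower of all genes tested. At an unadjusted p under 0.05 limma placed 1 gene above 0 and 2 below, beside 8.77% and 13.4% of all genes. The differences ran from -0.60 (Dnaic2) to 0.50 (Rsph14), with a median of 0.07 log2 units beside -0.05 for all genes.

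Genes that act with the axonemal set but carry other names were read in the same comparisons, where the share of all genes called higher was 3.29%, 5.48%, 18.2% and 9.84% in the 4 steps to day 30. From day 0 to day 8, 5 genes of the 3 lists were called higher: Meig1 (2.25 ± 0.14), Efhc2 (1.22 ± 0.27), Ribc2 (1.11 ± 0.34), the assembly factor Dnaaf5 (1.10 ± 0.12) and Tbpl1 (1.09 ± 0.11). Nme8 was called lower, at -1.26 ± 0.39. Of 19 genes for dynein arm assembly and docking, 11 rose from day 8 to day 14 and 16 from day 14 to day 20, with none called lower in either, and 2 rose and 1 fell from day 20 to day 30. The assembly factor Zmynd10 rose by 4.54 ± 0.19 log2 units in the first of these steps, and the assembly factor Dnaaf1 by 3.34 ± 0.18 in the second. Of 33 doublet, central pair, spoke and linkage genes, 13 and 26 rose in the same steps, among them Meig1 (4.44 ± 0.14 from day 8 to day 14) and the central pair gene Spag6l (3.59 ± 0.26 from day 14 to day 20). Of these 33, 7 rose and 1 fell from day 20 to day 30, with Saxo1, which binds microtubules of cilia and centrioles, at 4.90 ± 0.45.

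Of 17 genes listed as regulators of ciliary and spermatid transcription, 7 were called higher from day 8 to day 14. It was 8 from day 14 to day 20 and 5 from day 20 to day 30, with none lower in any. The shares of all genes were 5.48%, 18.2% and 9.84%. The list is not confined to transcription factors: it also holds Ccno and Deup1, counted above as multiciliated markers. Deup1 is among the calls in the steps to days 20 and 30, at 2.83 ± 0.30 and 2.46 ± 0.30. Crem, an activator of spermatid genes, rose by 3.28 ± 0.24 and then by 2.63 ± 0.24, to 781 on day 20. Rfx factors, which bind the X-box of ciliary genes, each had a course of their own. Rfx4 rose by 3.10 ± 0.39 and then by 1.43 ± 0.39 in the steps to days 14 and 20, and Rfx2 by 2.03 ± 0.37 and 1.88 ± 0.37. Rfx3 and Rfx1 rose by 1.93 ± 0.31 and 1.81 ± 0.16 from day 20 to day 30, while Rfx5 and Rfx7 were called in no step, with Rfx7 at -0.90 ± 0.13 from day 20 to day 30. None of these 3 lists had a called gene from day 30 to day 35.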

How the data were processed

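Total RNA of whole mouse testis was extracted with Trizol and biotin-labelled with a one-cycle 3' amplification kit, per the labels' protocols. The deposited values are linear probe set intensities, 1 per probe set and array, and all 20 arrays share a trimmed mean of 125. The sources used here name no software for them, and no detection calls were used.

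Of 45101 probe sets, 64 are controls. In the annotation used, 34958 carry 1 gene symbol and 932 several, and the latter named no gene. Chromosomes, promoter sequences and current symbols come from RefSeq (GRCm38.p6), which matched all 51 axonemal genes by Entrez ID. Log2 values were computed here from the deposited intensities after adding 7.83, the pooled 20th percentile. Tests kept genes above the 40th percentile of the array on 2 arrays or more.

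limma 3.58.1 in R 4.3.3 (lmFit, then eBayes with a trend) was fitted with day as a factor to all 20 arrays, leaving 10 residual degrees of freedom, with 8.88 from the prior. All tests were two-sided, the time course used the moderated F statistic, and comparisons that share arrays are not independent. The script was tested on simulated data. The axonemal genes, roles, marker and pathway lists were chosen with earlier results of these data known.

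All arrays are given for the gene with the widest range in each role, for any called gene that was higher early than late, and for the 3 genes with the highest mean intensity. Values of other genes were chosen for print after they were seen. Alternatives were quantile normalization, a common median, other added constants, filters, floors and thresholds, averaged probe sets, no trend, the replicate number as a block and leaving out each array. The numbers do not pair the arrays: deviations of same-numbered arrays correlated between -0.0253 and 0.0763 over 45 pairs of days. Figures were drawn with matplotlib 3.10.9.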

Additional observations from a re-analysis of the deposited data

How the results depend on the processing

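Most counts of axonemal genes called stayed within 1.5 times their reported value. Their direction held for day 14 against day 8 and day 20 against day 14, while day 30 against day 20 went from 7 higher and 0 lower to 6 and 2 with a common median 7 and 1 with quantile normalization, and 7 and 1 without day 30 replicate 1, the lower gene being Rsph3a in both of the latter. The exceptions were day 8 against day 0, where 1 gene became 4 with the smaller added constant, 0 with low values set to the pooled median and 0 with probe sets averaged, and day 14 against day 8, where 26 became 15 with low values set to the pooled median. That floor removes differences below it by construction, so these losses do not measure how far background limits the early comparisons. Leaving out each array gave 1 to 3 genes for day 8 against day 0 (2 without day 0 replicate 1, 3 without day 8 replicate 1 and 3 without day 8 replicate 2), 23 to 27 for day 14 against day 8, 41 to 42 for day 20 against day 14, 7 to 8 for day 30 against day 20 and 0 for day 35 against day 30. Over the time course it gave 47 to 48, Dnah11 being called without day 18 replicate 2. For day 20 against day 14 the gene added is Dnah11, called without day 14 replicate 2 (1.57) and without either day 18 array (1.11). With the replicate number as a block the counts were 1, 26, 41, 7, 0 and 47, as without it, and since the numbers only share a name the block stands as an alternative. Calls that held under every alternative were 0 of 1, 14 of 26, 36 of 41 and 4 of 7 in the first 4 comparisons, and 45 of 47 over the time course. The calls lost for day 20 against day 14 were Dnah5, Cfap97d1 and Cfap157 (0.51) with low values set to the pooled median, and Cfap298 and Drc3 with probe sets averaged. With a common median the higher share of all calls went from 54.3% to 65.0% for day 8 against day 0 and from 31.8% to 63.3% for day 35 against day 30, while the axonemal counts were 1 and 0 as before. The cause of these shifts was not tested.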

Other observations

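Probe sets that did not represent a gene gave further values. Of 28 such probe sets of the axonemal genes, 24 had the same sign of difference as the representative on day 20 against day 14. Of the 19 whose highest day mean reached the pooled median of intensity, 18 had the same sign. The exception was a second probe set of Cfap410, a protein of the ciliary base, which was lower on day 20 than on day 14 on the log2 scale. Its means were 84.9 on day 14, 28.3 on day 18 and 108 on day 30, where the representative read 84.8, 142 and 113. On day 20 the representative read 109. A second probe set of Cfap61, of the spoke-associated calmodulin complex, read 3.57 on day 14, 124 on day 20 and 244 on day 30, where the representative read 14.4, 97.9 and 124. Both other Cfap97 probe sets were highest on day 35, at 147 and 413, whereas the representative was highest on day 20.

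A probe set assigned to both Dnah7b and Dnah7c, inner arm heavy chains not counted among the 51 because it carries several symbols, read 53.8 on day 0, 393 on day 14, 1663 on day 20 and 1230 on day 35. Its second array of day 14 read 354, above all arrays of days 0 to 10.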
